A study of Caenorhabditis elegans with 45 samples.

Results

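The first hours of adult life were examined in FEM worms by comparing 49 h with 41 h post feeding, the interval in which animals leave the molt from the last larval stage (L4) and become adults. The comparison takes the 3 libraries labelled 49 h and the 3 labelled 41 h of this strain, 6 of the 45 libraries of the series, and describes all genes. FEM worms carry fem-3(q20), a temperature-sensitive gain-of-function allele that masculinizes the germline, so that at the restrictive temperature hermaphrodites have a normal somatic gonad, make sperm in excess, and make no oocytes. Both age groups carry this allele, and both were grown at the restrictive temperature on HT115 bacteria with an empty feeding vector after arrest as L1 larvae, so no group in the comparison has a normal germline. Each library came from many pooled whole animals, and the 41 h sample lies at the very end of the molt by the study's timing. The other strain of the series, GEM, carries gon-2(q388) and gem-1(bc364), has a degenerate gonad with incomplete penetrance, and enters 1 comparison here with 3 libraries at 41 h and 2 at 49 h. In the fit across all genes the 18 groups of strain and age each had their own mean.

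A molt of Caenorhabditis elegans replaces the collagen cuticle, the exoskeleton secreted by the epidermis, and is preceded by a wave of expression of collagens, proteases, and secreted epidermal proteins that ends when the new cuticle is laid down. Entry into adulthood also brings a switch in cuticle collagens and the onset of yolk production, in which the intestine secretes vitellogenins that oocytes normally take up. In the germline, spermatocytes transcribe the genes for major sperm proteins (MSP), which form the cytoskeleton of the crawling sperm, before meiosis ends and transcription stops.

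Values are normalized counts, the read counts of a gene divided by a size factor per library, and they compare a gene between libraries but not one gene with another. Changes are differences, 49 h minus 41 h, in the mean of log2(normalized count + 1), so 1 unit is a doubling and low genes have their change understated. A gene was called when its adjusted p in limma was under 0.05. The 41 h libraries held an estimated 25153104, 23545759 and 13508155 reads and the 49 h libraries 19803576, 23765068 and 27404708. Between 17230 and 19161 genes were detected in the 6 libraries, with means of 18392 at 41 h and 17633 at 49 h, a difference that did not pass an exact permutation test (two-sided p = 0.3, 3 libraries against 3, the smallest possible p being 0.1). The distance between libraries, 1 minus their Pearson correlation over all genes, was 0.0076 to 0.0146 within an age and 0.0265 to 0.0483 between the ages. Library 3 at 49 h stood nearest to the 41 h libraries, with a mean distance of 0.0307 to them against 0.0426 and 0.0441 for the other two, and it was the 49 h library nearest to the 41 h level in 67.8% of the genes called. Library 2 at 41 h was in turn the nearest to 49 h, with a mean distance of 0.0345 against 0.0397 and 0.0432, and in 48.2% of the genes called. Counts that lead an account below are also given without library 3 at 49 h, and how far the animals of a library had advanced past the molt was not measured.

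The labels were checked on marker genes. The gene fem-3 itself (chromosome IV, 9104966 to 9107607, plus strand, WBCel235) had normalized counts of 123, 133 and 142 at 41 h and 131, 161 and 137 at 49 h, and the groups overlapped. The sperm-specific phosphatase gene gsp-3 stood at 1807, 2321 and 2164 and then at 9413, 9896 and 7863, against 5.36, 37.1 and 4.70 in GEM at 41 h. The adult-specific collagen gene col-19 was already abundant at 41 h, with 32532, 38560.1 and 35241, and higher at 49 h, with 154816, 142913 and 150241. The molting gene mlt-10, whose promoter drove the reporter the study used for timing, fell from 3071, 3261 and 2723 to 195, 74.9 and 310.1, and of the remaining markers of the molting epidermis nas-37 was at 705, 719.5 and 691 and 888, 915 and 915. The 41 h samples held transcripts of both the molting and the adult epidermis, and in the 49 h samples mlt-10 was lower and col-19 higher in every library, while nas-37 did not pass the test. Of 8 embryo markers, 4 were too low to be tested and the highest level of the 4 tested was 8.30 (end-3 at 49 h). The body wall myosin gene unc-54 was nearly level, with 123006, 117007 and 113549 at 41 h and 111301, 110193 and 110193 at 49 h. Another muscle gene, myo-3, was called lower, from 10828, 9413 and 8433 to 5540, 4721 and 5883 (-0.83 ± 0.17, adjusted p = 2.4e-04). The neuronal genes unc-13, snb-1, and rab-3 changed by -0.36, -0.19 and -0.30, of which only the first passed the test (adjusted p = 0.047). In whole animals, more or fewer cells of a type and more or less RNA per cell cannot be told apart.

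**Figure D1:**
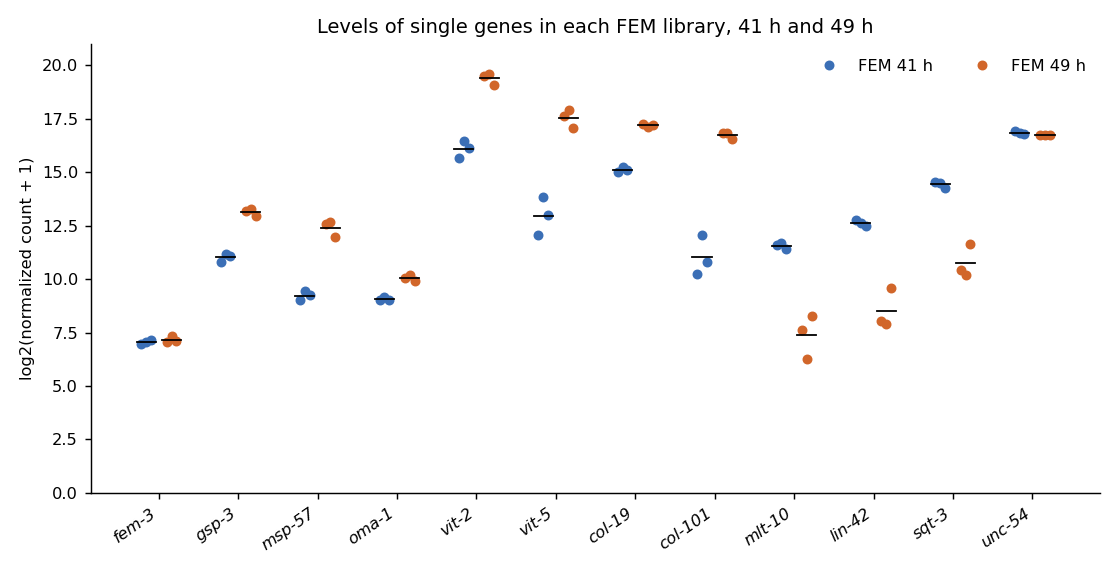
Levels of 12 genes as log2(normalized count + 1) in the 3 FEM libraries at 41 h (blue) and the 3 at 49 h (orange), with a line at each mean. The libraries of both ages do not overlap for the sperm genes, vitellogenins, adult collagens, molting genes, sqt-3, oma-1, and unc-54, while fem-3 overlaps. The gene unc-54 was nearly level, so a lack of overlap does not by itself mean a large change.

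Of 16925 genes tested, 6066 (35.8%) were called, 3930 higher at 49 h (23.2%) and 2136 lower (12.6%). The median change was 1.51 among the called rises and -1.50 among the called falls, and 2597 genes rose and 1400 fell by at least 2-fold. Beyond 8-fold the order was the reverse, with 144 rises and 551 falls. The changes ran from -6.49 for the collagen gene col-117 to 6.24 for nspa-7, a nematode-specific peptide gene. This split depends on the scaling: 64.8% of the calls were rises in the values as deposited, 49.7% after quantile normalization (3452 rises, 3498 falls), and 47.9% after each library was centred on its median (3025 rises, 3287 falls). As deposited, the median change over all genes tested was 0.16, and it was 0 and -0.05 under these scalings, so small changes are read against that shift. Without library 3 at 49 h, 3676 genes rose and 1950 fell. With the spread estimated from the 6 libraries alone, 5807 rose and 3062 fell.

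**Figure D2:**
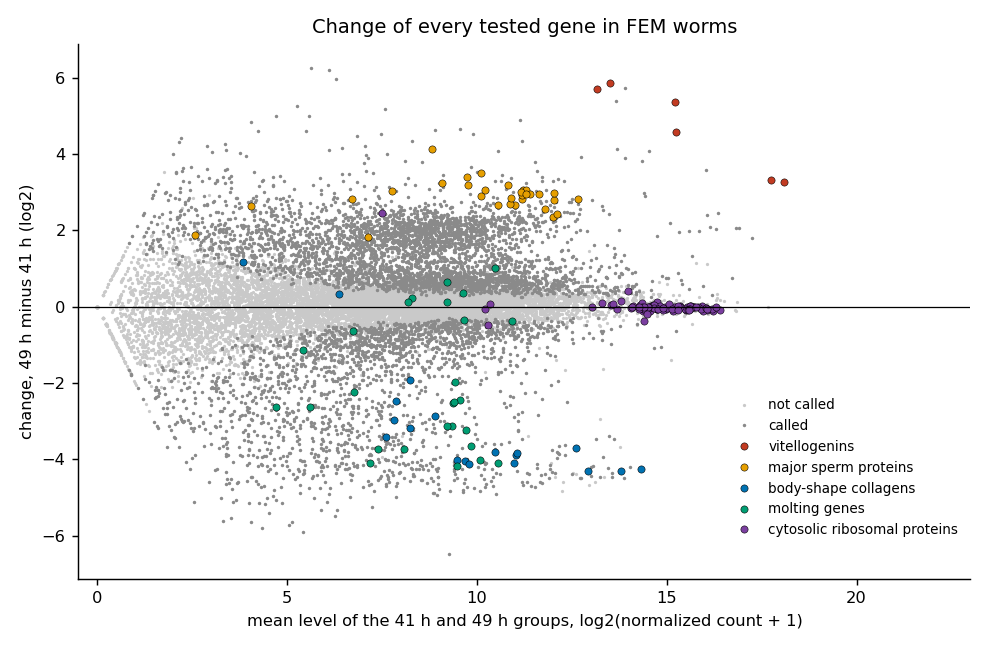
Change from 41 h to 49 h (log2, vertical) against the mean level of both ages (log2(normalized count + 1), horizontal) for the 16925 genes tested, called genes in dark grey and the members of 5 lists in color. The vitellogenins lie highest at the right, major sperm proteins form a band near 3, body-shape collagens and molting genes reach -4, and cytosolic ribosomal proteins lie along 0.

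The genes of yolk rose together. All 6 vitellogenin genes, which encode the yolk lipoproteins, were called higher at 49 h, beside 23.2% of all genes tested, with a median change of 4.97, and all were called without library 3 at 49 h too. The gene vit-2 had normalized counts of 52051, 90218 and 70968 at 41 h and 751629, 782304 and 562417 at 49 h, a change of 3.32 ± 0.32 (SE, adjusted p = 1.3e-09). Transcripts of vit-6, which lies on chromosome IV while the other vitellogenin genes lie on X, went from 67507, 108011 and 98715 to 936588, 974811 and 700815. The steepest rise was that of vit-3 (chromosome X, 3567355 to 3572549, minus strand), from 845, 3071 and 1393 to 95797, 128026 and 58104, a change of 5.86 ± 0.47 (adjusted p = 6.5e-11), or about 58.2-fold. For each vitellogenin gene library 2 was the highest of the 41 h libraries and library 3 the lowest of the 49 h libraries. Together the family took 0.854% ± 0.237 (SD, n = 3) of all normalized counts at 41 h and 8.06% ± 1.29 at 49 h. The genes vit-3, vit-4, and vit-5 are close copies of each other, so their separate values are uncertain. The non-coding RNA genes T27A10.8 and F59D8.3, chosen after their values were seen, changed by 6.20 and 5.97, and they share 171 exonic bases with vit-3 and 150 with vit-4, from which the unstranded reads cannot be separated.

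Sperm transcripts rose in every list fixed for them. Of 31 MSP genes tested 30 were called higher at 49 h (96.8%, against 23.2% of all genes), of 24 spe genes 22, and of 14 other sperm markers, 9 nspd genes, and 12 ssp genes every one, with no member of these lists called lower. The other sperm markers are those other than MSP and include spe genes such as spe-11. The lists therefore share members and hold 83 distinct genes tested. The median changes were 2.93 for the MSP genes, 2.75 for the nspd peptides, 2.47 for the ssp family of small MSP-like proteins, 1.93 for the other sperm markers, and 1.68 for the spe genes. The MSP genes together held 0.112% ± 0.0176 (SD, n = 3) of all normalized counts at 41 h and 0.633% ± 0.0656 at 49 h. The largest rise among them was that of msp-63, from 90.8, 115 and 118 to 2142, 2297 and 1393 (4.14 ± 0.65, adjusted p = 5.9e-06). The member that did not pass, msp-32, had 0.840, 0.896 and 7.85 at 41 h and 20.8, 8.21 and 6.54 at 49 h. MSP and nspd genes are near-identical copies, and reads can be split among them, so their number is not a number of independent measurements.

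Genes with separate roles in the sperm moved alike. Transcripts of htas-1, a sperm histone H2A variant, rose from 343, 427 and 463 to 2099.7, 2185 and 1825 (2.31 ± 0.35, adjusted p = 3.3e-06). Transcripts of spe-11, which encodes a paternal factor the embryo needs, rose from 1187, 1465 and 1365 to 7258, 6904 and 5540.4. Genes that act at other steps rose as well. Those named here for their known role were chosen after their values were seen: spe-44, a transcription factor of the spermatocyte program, by 0.91, fer-1, needed for membrane fusion when sperm mature, by 1.36, spe-9, needed at the egg, by 1.87, and spe-12, needed for sperm activation, by 2.99, the largest change of the spe list. In spe-12 the counts were 62.4, 89.0 and 72.7 at 41 h and 719.5, 619 and 472 at 49 h. The members that did not pass were spe-48 (0.16) and spe-29 (0.46, which shares 117 exonic bases with gon-1). Within the nspd family nspd-9 rose most, from 110.1, 136 and 84.6 to 2207, 2099.7 and 1555 (4.15 ± 0.45), and within the ssp family ssp-19, from 54.1, 80.5 and 74.2 to 638, 819.6 and 445 (3.15 ± 0.45). Library 3 at 49 h was the nearest to the 41 h level in 29 of the 30 MSP genes called and in 14 of 14 sperm markers, and without it 30 MSP genes, 21 spe genes, and 13 sperm markers were called.

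Genes of stem cells, meiotic entry, and meiotic chromosomes mostly did not pass the test. Of 13 genes for germline stem cells and meiotic entry none passed (0 in each direction), of 27 genes for meiotic chromosome axes, synapsis, and recombination 1 rose, of 23 DNA replication genes 2 rose and 1 fell, and of 15 P granule genes 4 rose (26.7%), beside 23.2% of all genes tested. The stem cell regulators fbf-1 and glp-1 changed by -0.03 and 0.23, and the meiotic entry gene gld-1 had 2321, 2297 and 2439.6 at 41 h and 2892, 2980.0 and 2367 at 49 h. The meiotic gene that rose was lab-1, which protects chromosome cohesion, from 157, 180.3 and 173 to 795, 795 and 651 (2.13 ± 0.33, adjusted p = 5.0e-06), while the other 26 lay between 0.19 (rec-8) and 0.73 (him-14). These counts rest on a spread estimated over all 18 groups: with the 6 libraries alone, 21 of the 27 meiotic genes, 7 of the 13 stem cell genes, and 11 of the 15 P granule genes were called higher, and 1 P granule gene lower. The P granule and DNA replication counts also rest on single libraries: with 1 library left out, 0 to 4 P granule genes rose, and 1 DNA replication gene rose and 0 fell. After quantile normalization 1 DNA replication gene rose and 3 fell. Of 22 regulators of germline sex, fem-1, spe-44, and the GATA factor gene elt-1 rose, elt-1 from 298, 298 and 275 to 1001, 943 and 879, and xol-1, the gene that reads the X chromosome dose in embryos, fell from 16.1, 16.1 and 17.4 to 2.78, 0 and 2.78. The genes that decide for sperm, fog-1 and fog-3, had changes of 0.34 and 0.46 that did not pass (adjusted p = 0.33 and 0.15).

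Oocyte markers were detected in FEM worms at both ages. Of 17 markers 3 were called higher at 49 h (17.6%, below the 23.2% of all genes tested), with a median change of 0.59. The yolk receptor gene rme-2 had 153, 229 and 244 at 41 h and 304, 339 and 208 at 49 h, with overlapping groups. The gene oma-1, a regulator of oocyte maturation, had 512, 577 and 517 and then 1063, 1152 and 962 and did not pass (adjusted p = 0.058). Those that rose were egg-3 (1.02) and the eggshell permeability genes perm-2 and perm-4. Both perm genes stood apart from the rest of the list, perm-2 going from 6437, 8954 and 7942 to 62943, 71681 and 48532 (2.97 ± 0.34, adjusted p = 4.1e-08) and perm-4 changing by 2.89 ± 0.46. With the 6 libraries alone 12 of the 17 were called higher.

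The rises themselves had an uneven distribution. In steps of 0.5, the number of called genes went from 1099 at a change of 0.5 to 1 down to 620 at 1 to 1.5, then up to 910 at 1.5 to 2 and 726 at 2 to 2.5, before falling to 197. The 1636 genes called between 1.5 and 2.5, a range chosen after the distribution was seen, include 35 genes of the sperm lists, and the 341 called above 2.5 include 41. At 49 h, 80.3% of these 1636 genes were at least 8-fold higher in FEM than in GEM, against 7.37% of those called at 0.5 to 1, 31.5% at 1 to 1.5, 68.3% above 2.5, and 13.4% of all genes tested. Of the 1621 of them with a chromosome in the annotation 61 (3.76%) lie on X, where 13.9% of the tested genes lie. Above 2.5 the share on X was 12.5%. The median log2 level of the tested genes was 7.92, 7.96 and 7.89 in the FEM 49 h libraries. In the GEM 49 h libraries it was 6.81 and 6.997. The 8-fold cut includes this offset between the strains, and the cut was not tried under another scaling.

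On chromosome X a smaller share of genes rose and a larger share fell than on each autosome. On X 12.8% of 2322 tested genes rose and 22.7% fell, with a median change of -0.15, while on the autosomes 22.6% (III) to 28.9% (IV) rose and 9.50% (III) to 13.0% (V) fell, with medians of 0.15 to 0.25. Of the 83 sperm genes tested in the 5 sperm lists, 35 lie on IV, 22 on I, 15 on II, 7 on V, 3 on III, and 0 on X, and ssp-11 has no chromosome in the annotation. The shares are descriptions of these 6 libraries, and genes of a chromosome are not independent of each other.

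Most collagen genes of the larval and molting cuticle were lower at 49 h. Of 19 collagen genes with body-shape mutants (dpy, rol, sqt, bli, and lon genes), 15 were called lower at 49 h (78.9%, against 12.6% of all genes tested) and none higher (0), with a median of -3.81. Together they took 1.202% ± 0.177 (SD, n = 3) of all normalized counts at 41 h and 0.0648% ± 0.0466 at 49 h. The abundant collagen gene dpy-4 fell from 108011, 84964 and 76879 to 2751, 3943 and 9604 (-4.24 ± 1.36, adjusted p = 0.013), and dpy-13 fell from 74607, 62943 and 52051 to 1702, 2723 and 6904 (-4.30 ± 1.70, adjusted p = 0.047). The gene sqt-3, a cuticle collagen of every stage, fell from 24099.8, 23155 and 19929 to 1393, 1152 and 3164. In all 15 genes called, library 3 at 49 h kept the most transcript, and without it 14 were called, against 9 without library 1 and 8 without library 2 at 49 h. The 4 that did not pass were dpy-5, dpy-3, and the low genes dpy-17 and dpy-14. Of these dpy-5 had 40134, 36314 and 29143 at 41 h and 991, 1450.0 and 3751 at 49 h (adjusted p = 0.051). With the 6 libraries alone 17 of the 19 were called. The call of dpy-13 was lost in each fit that left out 1 library other than library 3 at 49 h, and that of dpy-4 without library 1 at 49 h.

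The larger col family had members in both directions. Of 137 col genes tested, out of 157, 70 fell (51.1%) and 27 rose (19.7%), beside 12.6% and 23.2% of all genes tested, and the median was -2.45. The deepest fall of any gene was that of col-117 (chromosome IV, 8822962 to 8824195, minus strand), from 7258, 5942 and 4536 to 40.3, 45.5 and 140.2 (-6.49 ± 1.22, adjusted p = 6.8e-05), followed in this family by col-54, from 275, 280.5 and 189.6 to 0, 3.53 and 25.0. The steepest rise was that of col-101 (chromosome IV, 325435 to 327020, minus strand), from 1211, 4272 and 1789 to 118183, 118183 and 97732 (5.72 ± 0.47, adjusted p = 1.1e-10), and col-143 rose from 1223, 4104 and 1603 to 89321, 80821 and 80016 (5.38 ± 0.58). These are rises of about 52.8-fold and 41.5-fold, against 4.22-fold for col-19. For both genes library 2 at 41 h stood above the other libraries of its age. The family as a whole held 8.70% ± 0.428 of all normalized counts at 41 h and 10.9% ± 0.701 at 49 h. Without library 3 at 49 h 65 fell and 25 rose.

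Most enzymes that process collagen were lower as well. Of 13 tested, 9 were called lower, among them the prolyl 4-hydroxylase subunit genes dpy-18, from 9798, 7863 and 7707 to 991, 1175 and 1365 (-2.85 ± 0.21, adjusted p = 1.2e-11), and phy-2 (-1.57). The protein disulfide isomerase genes pdi-2 and pdi-3, the peroxidase gene mlt-7, and the dual oxidase gene bli-3 changed by -1.07, -0.97, -1.41 and -0.53. The proprotein convertase gene bli-4 was level (0.01, adjusted p = 0.95), and phy-3, another prolyl 4-hydroxylase gene, rose by 1.22, a call lost after quantile normalization and centring and when 1 of the libraries other than library 3 at 49 h was left out. At 41 h phy-3 was at 133, 150 and 152 in FEM and at 0, 5.82 and 3.14 in GEM. Among 17 chaperone genes 4 fell (23.5%, beside 12.6% of all genes tested), hsp-3 (the endoplasmic reticulum BiP) by 0.76 and enpl-1 by 0.59 on the log2 scale. After quantile normalization 10 fell, and without library 3 at 41 h 2 fell.

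Genes of the molt were mostly lower 8 h after its end. Of 27 molting genes tested, 19 were called lower and 2 higher, with a median of -2.49. Transcripts of mlt-10 changed by -4.17 ± 0.66 (adjusted p = 6.8e-06), and those of lin-42, the period homolog that times the molts, fell from 6973, 6247 and 5652 to 267, 241 and 756 (-4.10 ± 0.94, adjusted p = 7.4e-04). The protease inhibitor gene mlt-11, the hedgehog-related gene qua-1, the extracellular matrix genes noah-1 and noah-2, and the transcription factor gene myrf-1 had changes of -3.22, -3.64, -2.43, -2.49 and -1.96, all called. The 2 that rose were nekl-2, a kinase gene (0.64), and nhr-23, whose receptor drives molting genes, from 981, 1001 and 1001 to 2185, 2079 and 1771 (1.01 ± 0.30, adjusted p = 0.0071). In GEM nhr-23 instead fell, from 1001, 780 and 527 to 80.5 and 254 (-2.37 ± 0.33, adjusted p = 3.5e-06). The difference of the changes, FEM minus GEM, was 3.38 for this gene and was called (adjusted p = 1.5e-06). At the later FEM ages nhr-23 stayed between 1997 and 3228, while mlt-10 stayed at or under 153. Library 3 at 49 h was the nearest to 41 h in 18 of these 21 genes, and without it 18 fell and 2 rose. Of 14 heterochronic genes 4 fell (28.6%) and 2 rose (14.3%), beside 12.6% and 23.2% of all genes tested. After quantile normalization and centring 7 and 6 of these genes fell. Among them kin-20, a casein kinase homolog, fell by 1.202 on the log2 scale, lin-28 rose by 0.78, and lin-29 and lin-14 changed by -0.56 and -0.17 without passing, and the rise of lin-28 was lost without library 1 or library 2 at 49 h.

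Several secreted families of the epidermis and pharynx had more falls than rises. Of 69 hedgehog-related and patched-related genes tested, out of 84, 45 fell and 6 rose, with a median of -1.69. Worms have no canonical hedgehog, and the hedgehog-related proteins are secreted mainly by epidermal cells. In this family grd-6 fell from 9413, 7479 and 7114 to 178, 177 and 571 (-4.91 ± 1.71, adjusted p = 0.023) and grl-27 from 1619, 1021 and 981 to 16.6, 46.9 and 111, while grd-3 rose from 658, 1001 and 756 to 11383, 12209 and 9700.1 (3.80 ± 0.24, adjusted p = 1.6e-12) and grd-4 from 6.77, 8.12 and 7.85 to 103, 125 and 58.7. The call of grd-6 was lost without library 1 or 2 at 41 h and without library 1 or 2 at 49 h. Of 32 astacin metalloprotease genes 17 fell and 3 rose, the largest falls being those of nas-23, from 132, 189.6 and 131 to 0, 10.6 and 2.78, and nas-27, from 560.2, 512 and 432 to 12.5, 4.70 and 24.3. Of 32 cuticlin genes 18 fell and none rose (0), cut-2 from 18033, 13493 and 14327 to 440.4, 619 and 1325, a call lost without library 1 at 49 h. Of 64 pqn and abu genes, which encode prion-like and glutamine-rich proteins, several of them of the pharyngeal cuticle, 27 fell and 7 rose, abu-14 falling from 16154, 13629 and 12456 to 229, 544 and 1260.4 (-4.69 ± 1.11) and pqn-11 rising from 2.53, 14.3 and 6.32 to 44.6, 32.8 and 48.4. The abu genes are close copies, and abu-4, with 78.8, 58.1 and 69.1 at 41 h and 0, 0 and 1.86 at 49 h, shares 150 exonic bases with Y5H2A.5. Without library 3 at 49 h the falls in these 4 families numbered 43, 17, 17 and 27.

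**Figure D3:**
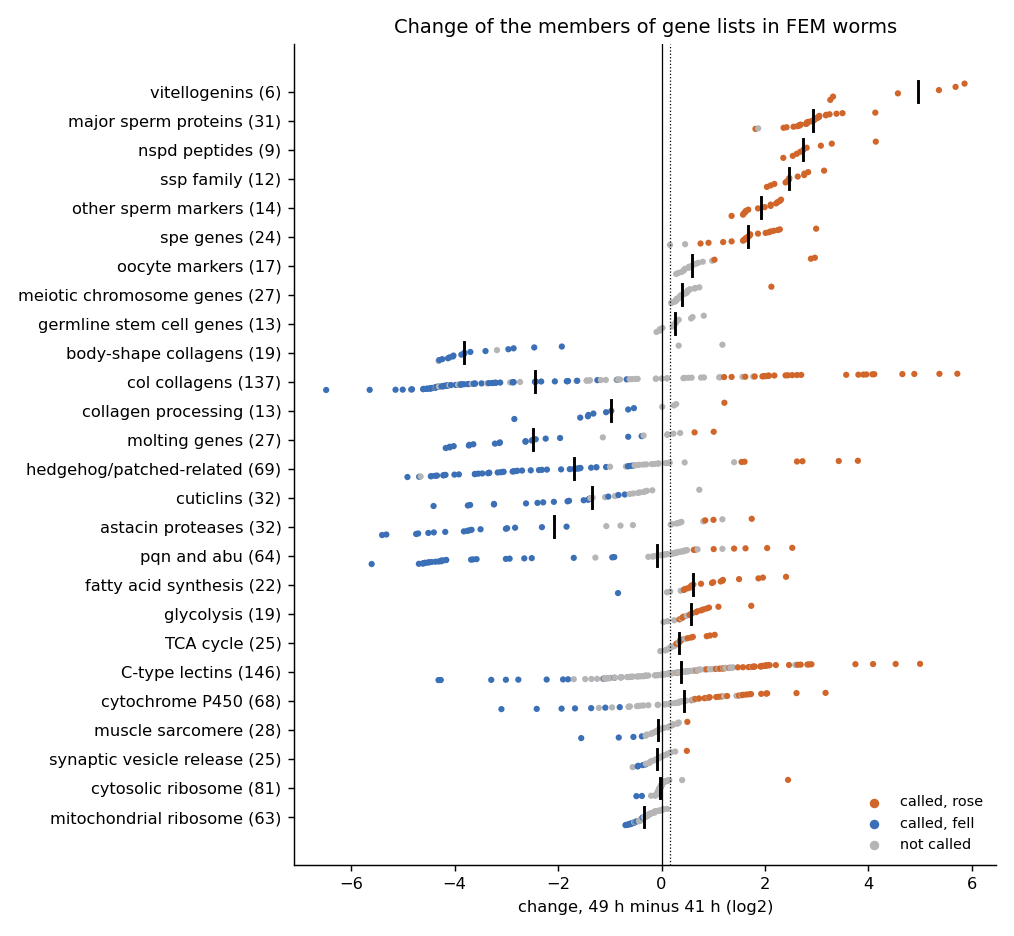
Change from 41 h to 49 h (log2) of each tested member of 26 gene lists in FEM worms, with the number of members in brackets, called rises in orange, called falls in blue, others in grey, and a black bar at the median of the list. The solid line is 0 and the dotted line the median of all genes tested, 0.16. Vitellogenin and sperm lists lie wholly to the right, cuticle and molting lists mostly to the left, and the col collagens on both sides.

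Most genes of lipid synthesis rose by smaller steps. Of 22 genes for fatty acid synthesis, desaturation, and elongation 18 rose and 1 fell (median 0.60), and 12 and 13 rose under quantile normalization and centring. The stearoyl-CoA desaturase genes fat-5 and fat-7 rose most, fat-5 from 613, 1001 and 698 to 3196, 2806 and 2835 (1.96 ± 0.17, adjusted p = 3.1e-10) and fat-7 from 38.3, 40.3 and 34.5 to 146, 286 and 203, and elo-9 fell from 449, 463 and 398 to 246, 241 and 241. Of 17 genes for fatty acid and retinol binding proteins 9 rose and none fell (0), lbp-8 from 9.28, 3.57 and 7.85 to 97.5, 46.9 and 43.7. Of 62 genes of fatty acid activation and beta-oxidation 24 rose (38.7%) and 10 fell (16.1%), beside 23.2% and 12.6% of all genes tested. They were led in opposite directions by acox-1.3, from 36.3, 73.4 and 33.1 to 595, 595 and 394, and by acdh-6, from 795, 719.5 and 658 to 18.1, 17.5 and 63.1. In this list 18 rose and 15 or 14 fell under quantile normalization and centring.

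Genes of central carbon metabolism had small rises. Of 19 glycolysis genes 14 rose (73.7%) and none fell (0), and of 25 TCA cycle genes 12 rose (48%) and none fell (0). The share of all genes tested that rose was 23.2%, and the medians of these lists were 0.57 and 0.33. Under quantile normalization and centring 8 and 9 of the glycolysis genes rose, and 6 and 3 of the TCA cycle genes, and without library 1 at 41 h or library 1 at 49 h 7 TCA cycle genes rose. The glycolysis gene with the largest rise was pfk-1.2, a phosphofructokinase gene, from 383, 497 and 406 to 1539.7, 1465 and 1273 (1.74 ± 0.39), which was at 8.03, 6.92 and 3.90 in GEM at 41 h, whereas its paralog pfk-1.1 changed by 0.40. The TCA cycle genes idh-1 and ogdh-2 rose by 1.03 and 0.94, and of 7 genes of the glyoxylate shunt and gluconeogenesis pck-2 and fbp-1 rose by 1.09 and 1.01 while icl-1, the isocitrate lyase and malate synthase, fell from 8689.6, 11967 and 9798 to 5323, 7479 and 6002 (-0.70 ± 0.19, adjusted p = 0.004). Of 35 oxidative phosphorylation genes 10 rose (28.6%, near the 23.2% of all genes tested). After quantile normalization 3 rose and 5 fell, after centring 0 rose and 3 fell, and with 1 library left out 2 to 6 rose. None of the 12 genes of the mitochondrial genome passed (0 in each direction).

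Counts of genes of protein synthesis and turnover depended on the scaling. Of 81 cytosolic ribosomal protein genes 1 rose and 2 fell, while 18 and 15 fell after quantile normalization and centring. Their share of all normalized counts went from 13.6% ± 0.536 to 10.5% ± 0.467 (SD, n = 3). The one that rose, rpl-42, had 66.4, 103 and 66.4 at 41 h and 445, 406 and 419 at 49 h, and at most 1.64 in the GEM libraries of these ages. Of 63 mitochondrial ribosomal protein genes 14 fell and none rose (0), with a median of -0.33, and 59 and 46 fell after quantile normalization and centring, but 2 to 7 with 1 library left out. Of 33 proteasome genes 7 rose (21.2%, near the 23.2% of all genes tested), the largest rise being that of rpn-6.2, from 595, 734 and 756 to 1807, 1862 and 1524 (1.32 ± 0.19). In GEM rpn-6.2 was at 37.5, 53.1 and 43.3 at 41 h and at 75.7 and 75.7 at 49 h. The median of the proteasome list, 0.23 as deposited, was -0.02 after quantile normalization. With 1 library left out 1 to 8 of them rose. Of 28 sarcomere genes 4 fell (14.3%, near the 12.6% of all genes tested) and 1 rose (6 and 0 under both other scalings). Among them tni-1 fell from 3827, 3604 and 3497 to 1223, 1223 and 1273, and 2 to 4 sarcomere genes fell when 1 library was left out. Of 25 genes of synaptic vesicle release 4 fell (16%, also near that share) and 1 rose. After quantile normalization and centring 9 and 8 of them fell and 0 rose, and 0 to 2 fell when 1 library was left out.

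Families of the intestine and of defense gave mixed results. Among the C-type lectin genes tested 28.1% rose and 6.85% fell, beside 23.2% and 12.6% of all genes tested. These shares were 31.4% and 8.57% for lysozyme and saposin-like genes, 32.4% and 10.3% for cytochrome P450 genes, and 31.7% and 15.9% for glucuronosyltransferase genes. Of 146 C-type lectin genes tested, out of 241, 41 rose and 10 fell, clec-190 rising from 0, 12.6 and 6.32 to 149, 175 and 123 (5.00 ± 0.60, adjusted p = 9.3e-08) and clec-230 falling from 197, 146 and 191 to 2.78, 8.21 and 19.5, with 6 falls without library 1 at 41 h. Of 35 lysozyme and saposin-like genes 11 rose and 3 fell (7 and 4 after quantile normalization), lys-7 from 357, 734 and 326 to 1235, 1603 and 1032 and spp-7 from 90.8, 71.97 and 51.98 to 0, 0 and 7.41. Of 57 transthyretin-related genes 27 rose and 6 fell, ttr-42 rising from 71.97, 125 and 78.8 to 897, 862 and 772, and the falls numbered 12 after quantile normalization, 11 after centring, and 3 without library 3 at 41 h or library 1 at 49 h. The cathepsin L gene cpl-1, whose protease acts on yolk proteins in embryos, rose from 13493, 15677 and 14044 to 54719.8, 60475 and 41772 (1.85 ± 0.17, adjusted p = 4.9e-10), and of 25 cathepsin genes 6 rose, near the share of all genes tested. Of 68 cytochrome P450 genes 22 rose and 7 fell, cyp-25A1 from 21.2, 28.7 and 15.8 to 244, 208 and 158 and cyp-23A1 from 41.5, 46.9 and 48.9 to 2.78, 4.70 and 6.54, of 63 glucuronosyltransferase genes 20 rose and 10 fell, and of 41 glutathione S-transferase genes 10 rose and 5 fell (24.4% and 12.2%, near the shares of all genes tested). After quantile normalization 14 glucuronosyltransferase genes rose and 13 fell, and without library 1 at 49 h 6 fell. The superoxide dismutase gene sod-3 rose from 119, 98.5 and 67.7 to 394, 272 and 394 (1.90 ± 0.32, adjusted p = 1.7e-05). Of 200 nuclear hormone receptor genes 20 rose and 15 fell, shares of 10.0% and 7.50% beside 23.2% and 12.6% of all genes tested. After quantile normalization 12 of them rose and 24 fell, after centring 10 and 28, and with 1 library left out 12 to 17 rose and 8 to 16 fell.

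Signaling peptides included a few single genes with large changes. Of 52 nlp genes 8 rose (15.4%) and 6 fell (11.5%), shares under the 23.2% and 12.6% of all genes tested. Of the nlp genes 7 rose and 10 fell after quantile normalization, and 5 rose and 11 fell after centring. Among them nlp-30, an epidermal antimicrobial peptide gene, fell from 225, 209.6 and 173 to 11.1, 26.9 and 35.2, nlp-25 fell from 109, 103.6 and 117 to 2.78, 4.70 and 15.8, and nlp-4 and nlp-27 rose by 2.08 and 1.48. Of 37 insulin-like genes ins-7 and ins-37 rose, ins-7 from 48.9, 73.4 and 45.5 to 184, 186 and 227 (1.84 ± 0.34, adjusted p = 6.7e-05), and ins-5 and ins-27 fell by 0.95 and 0.80 on the log2 scale, falls of which 0 or 1 held with 1 library left out. Of 30 flp genes 2 rose (6.67%) and 1 fell (3.33%), after quantile normalization 0 rose and 6 fell, and with 1 library left out 0 to 2 rose. These shares, and the 5.41% in each direction of the insulin-like genes, were also under those of all genes tested.

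Single genes outside these families reached comparable sizes. The largest rise was that of nspa-7 (chromosome V, 14883039 to 14883143, minus strand), from 1.69, 26.1 and 1.59 to 445, 454 and 402 (6.24 ± 0.66, adjusted p = 9.0e-09). The related nspa-6 was listed at 0 in all 41 h libraries and had 18.1, 12.9 and 27.8 at 49 h. Transcripts of ule-1, named for expression in the uterine lumen, rose from 289, 1053 and 449 to 10828, 12835 and 8184 (4.34 ± 0.70), those of sdz-6 from 7.58, 7.17 and 7.85 to 249, 333 and 239, and those of the chemoreceptor-family gene sri-40 from 17.7, 44.2 and 33.1 to 638, 671 and 423. For pud-3 the 41 h libraries spread from 10.1 to 313 and the 49 h libraries from 463 to 2863, the highest at 41 h being library 2 and the lowest at 49 h library 3. Among the falls, jud-4 went from 223, 124 and 123 to 0, 0 and 19.5 (-5.79 ± 0.90), the ligand-gated channel gene lgc-21 from 2892, 2439.6 and 2321 to 34.9, 94.6 and 186, and dct-5 from 1085, 853 and 972 to 29.3, 18.7 and 95.5. The lipase gene lips-7, from 632, 589 and 487 to 4.16, 24.5 and 42.8, shares 109 exonic bases with mlt-10. Over all 25985 genes in the table, 71 were at 0 in every 41 h library and detected in every 49 h library, and 137 the reverse, all at low levels.

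Set against the later FEM ages, the 8 h interval held large parts of the change in several lists. The mean of log2(normalized count + 1) over the vitellogenins was 13.15 at 41 h, 17.83 at 49 h, and 18.59 at 65 h (2 libraries), and it was 14.05 at 257 h. Over the MSP genes it was 8.66, 11.54, and 12.32 at these first ages, and over the other sperm markers 9.14, 11.04, and 11.42. The molting genes went from 9.64 to 7.65 and 7.05. The body-shape collagens went on falling, from 11.30 at 41 h to 8.16 at 49 h, 6.36 at 65 h, and 4.84 at 73 h. The transcripts of col-101, which had risen by 49 h, were between 161134 and 185349 at 65 h and between 1163 and 2121 at 257 h.

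**Figure D4:**
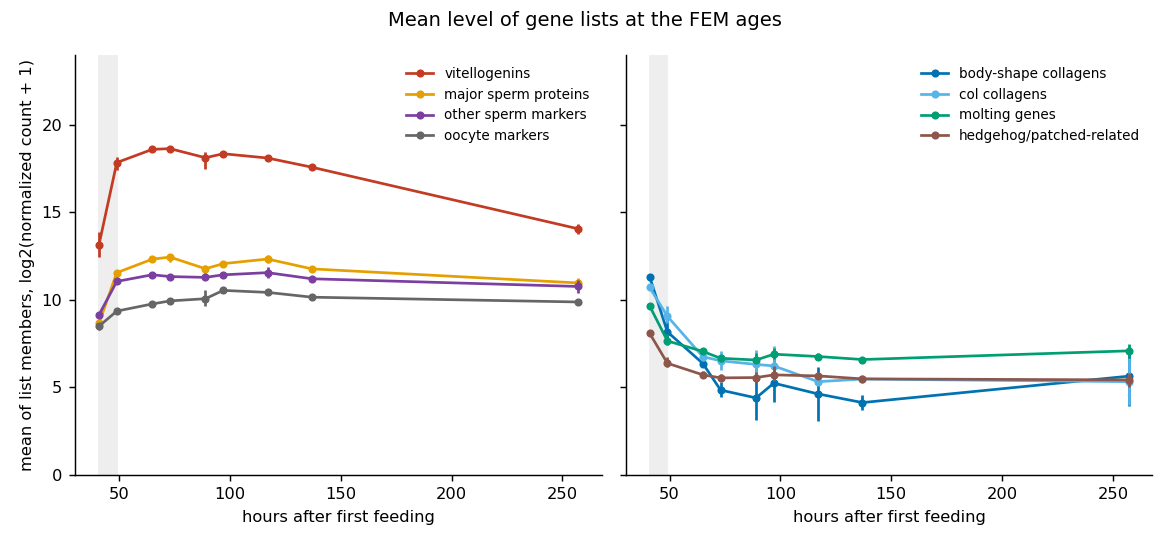
Mean of log2(normalized count + 1) over the members of 8 gene lists against hours after first feeding at the 9 FEM ages, with points at the mean of 2 or 3 libraries and vertical lines from the lowest to the highest library. The grey band marks 41 to 49 h, in which the vitellogenin mean goes from 13.15 to 17.83 and the body-shape collagen mean from 11.30 to 8.16.

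The same interval was compared in GEM worms. The difference of the changes, FEM minus GEM, was called for 3114 genes, 1858 with a higher change in FEM (11%) and 1256 with a lower one (7.42%). This split too depends on the scaling, with 1608 higher and 2162 lower after quantile normalization and 1124 and 1934 after centring. Its size rests on where each strain stood at 41 h and on 2 GEM libraries at 49 h that differ from each other. At 41 h mlt-10 was at 7043, 11270.1 and 7554 in GEM, above FEM, and vit-2 at 2835, 9996 and 2617, below FEM, and at 49 h the GEM libraries held 787 and 4721 of mlt-10 and 299538 and 148746 of vit-2. The distance of the GEM 49 h libraries to each other, 0.0183, was above any within the FEM ages, and the second was 0.0207 to 0.0281 from the GEM 41 h libraries. A different position in the molt at 41 h and a different response to it cannot be told apart in this comparison.

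Of the changes that were higher in FEM, that of nspa-7 was 6.24 ± 0.99 higher (SE, adjusted p = 2.9e-05), and it and clec-190 (5.00) were listed at 0 in all 5 GEM libraries. For sri-40 the difference was 6.06, with 6.24, 10.5 and 6.24 in GEM at 41 h and 0.405 and 2.90 at 49 h. The dehydrogenase gene dhs-4 rose in FEM from 29.6, 34.9 and 37.9 to 227, 375 and 142 and stood at 246, 177 and 289 and then 63.1 and 78.0 in GEM, a difference of 4.44. For the antibacterial peptide gene abf-1 it was 4.34. In the other direction, col-7 fell in FEM from 1587, 1754 and 2079 to 121, 203 and 295 and went in GEM from 16.1, 8.12 and 109 to 1032 and 1651, a difference of -8.87 ± 1.87 (adjusted p = 9.6e-04), though its fall in FEM was not called when any 1 FEM library was left out. For col-137, which fell in FEM from 4358, 3904 and 4536 to 80.5, 112 and 353, the difference was -9.07. The neighbors ttr-14 and vap-2, which share 90 exonic bases, had differences of -8.68 and -8.27, with ttr-14 at 13629, 12087 and 11848 in FEM and 41.1, 30.2 and 3.14 in GEM at 41 h. For jud-4 the difference was -7.49.

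By list, the difference was called higher in FEM for 9 of 31 MSP genes and 8 of 24 spe genes, beside 11% of all genes tested. These counts were 9 and 9 after quantile normalization and 6 and 6 after centring. The difference was also called higher for 10 of 22 fatty acid synthesis genes, 10 of 19 glycolysis genes, 15 of 25 TCA cycle genes, and 16 of 35 oxidative phosphorylation genes. After quantile normalization the counts of the last 4 lists were 6, 3, 8 and 7, and after centring 9, 5, 8 and 6. The difference was called lower in FEM for 7.42% of all genes tested. By list these were 50 of 137 col genes, 18 of 69 hedgehog-related and patched-related genes, 17 of 32 astacin genes, and 2 of 6 vitellogenins. The MSP genes were low in GEM, as in msp-57, which had 5.36, 25.6 and 1.56 at 41 h and 13.6 and 28.1 at 49 h in GEM against 512, 698 and 607 and 6123, 6502 and 4063 in FEM. Even so, 17 of the 31 MSP genes were called higher in GEM, with a median change of 1.47 against 2.93 in FEM. Of the other sperm lists, 9 of 14 sperm markers, 9 of 24 spe, 6 of 12 ssp, and 4 of 9 nspd genes were called higher. No member of these sperm lists (0) was called lower in GEM, where 2017 of all 16925 genes tested were called higher. The col genes had a median change of -2.45 in FEM and 0.62 in GEM, and the molting genes of -2.49 and -2.13. The oocyte markers, of which 3 of 17 rose in FEM, had 17 of 17 called higher in GEM, and the difference itself was called for 5, each lower in FEM, and for 9 and 12 under the other scalings.

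**Figure D5:**
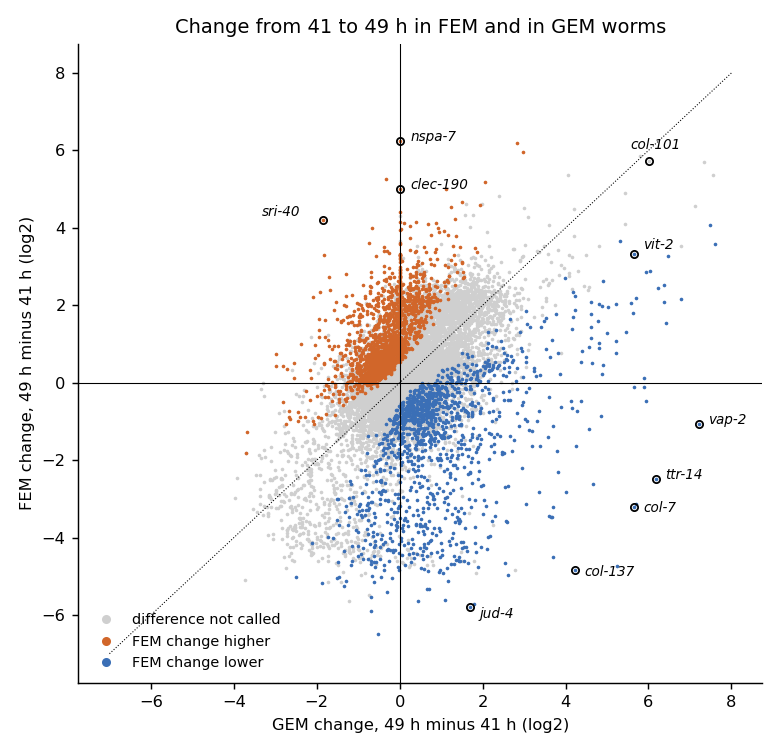
Change from 41 h to 49 h (log2) in FEM worms (vertical) against that in GEM worms (horizontal) for the 16925 genes tested, with genes whose difference was called in orange (1858, higher in FEM) or blue (1256, lower in FEM) and the line of equal change dotted. The circled nspa-7 and clec-190 lie at 0 in GEM, and col-7, col-137, and ttr-14 fell in FEM and were higher at 49 h in GEM.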

How the data were processed

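Poly(A)-selected RNA of pooled whole worms was sequenced as single-end, non-directional reads, which the authors trimmed (Trim Galore 0.4.4 and HISAT2 2.1.0 are named in the submitters' processing notes), aligned to WBCel235, counted per gene in SeqMonk, and normalized with DESeq2. The deposited values are the natural log of the normalized count plus 1, written to 2 decimals, for 25985 genes in 45 libraries; the log base was read from the spacing of low values, since the sources used here do not state it. Dividing by the natural log of 2 gave log2(normalized count + 1), with a pseudocount of 1. Whole reads could be told apart only at low values, so no count model was used, and reads per library were estimated from the step that 1 read is worth.

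The 16925 genes whose deposited values averaged 1 or more over all libraries were fitted in limma 3.58.1 (R 4.3.3) with 1 mean for each of 18 strain and age groups, 27 residual degrees of freedom, and a trended moderated variance. Adjusted p-values are Benjamini-Hochberg values over all genes tested, with a threshold of 0.05. The study's methods used here state no test of single ages, so this fit is a choice made here. The fit was tested on simulated data, with 50 genes changed at each of 4 sizes, 0.5, 1, 2 and 4 on the log2 scale. It called 5, 23, 39 and 50 of them, and 9 other genes. In the libraries compared, 1099 of 2121 genes with a rise of 0.5 to 1 were called, and 910 of 960 at 1.5 to 2. How many changes were missed there was not tested. Python 3.11.15 was used for summaries. Positions and shared exonic bases came from Ensembl 115 (WBcel235), in which 25381 names were matched.

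Replicates are libraries with separate identifiers, and nothing links them across ages or gives a culture, date, or batch. A batch and an age therefore cannot be told apart. The p-values and SEs of the fit rest on a spread between libraries pooled over all 18 groups, not on that of the 6 libraries compared. The 13508155 to 27404708 estimated reads per library limit the precision of low genes. The 54 gene lists and the genes described were chosen with earlier results of these data known. The genes named are the 15 largest rises and the 15 largest falls among called genes with no overlap, with at most 2 per name prefix and no msp gene, the 2 largest called changes in each direction in a list, defining members that did not pass, strain markers, and the 5 largest FEM minus GEM differences in each direction. Not every gene this rule gives is described, and other members named for a known role were chosen after their values were seen. Alternatives were other filters, pseudocounts, scalings, a variance without a trend, fits to fewer groups, and leaving out each library. Every column of the table was used (0 left out).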

Additional observations from a re-analysis of the deposited data

Results flagged for a closer look

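The change from 41 h to 49 h differed between FEM and GEM worms, by the test of the difference in limma, for 3114 genes. Among the genes whose change was higher in FEM, the differences on the log2 scale were 6.24 for nspa-7, 6.06 for sri-40, 5.00 for clec-190, 4.44 for dhs-4, and 4.34 for abf-1. Among those whose change was lower in FEM, they were -9.07 for col-137, -8.87 for col-7, -8.68 for ttr-14, -8.27 for vap-2, and -7.49 for jud-4. The change of vap-2 within FEM, -1.06, did not pass the test, and vap-2 shares 90 exonic bases with ttr-14. Groups of 3 libraries are too small for a test of single outlying libraries, so none was made.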

How the results depend on the processing

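The number of genes lower at 49 h, 2136, was 3498 after quantile normalization and 3287 after centring each library on its median. The number whose change was higher in FEM than in GEM, 1858, was 1124 after centring and 3055 with a pseudocount of 8, and the number with a lower change, 1256, was 2162 after quantile normalization and 1934 after centring. The cause was not tested. With 1 library left out, 3283 to 3676 genes rose and 1729 to 1950 fell (5045 to 5626 in all), and 2439 to 3405 differed between the strains, 1321 to 2112 higher and 927 to 1297 lower in FEM. A spread estimated from the 6 libraries alone gave 8869 calls, and one from FEM libraries alone 8135. Of the values of named genes under the alternatives, 2122 kept their direction and side of the threshold, 194 lost their call, 5 gained one, and none (0) changed direction past the threshold. Of the counts of list members, 1244 stayed within 1.5 times and 268 moved further. Changes of genes near the level of 1 read are limited by depth. No paired analysis was possible because the labels give each library its own identifier, and no number, culture, or batch links libraries of different ages.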

Other observations

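Basement membrane genes, which encode the sheet of matrix around the tissues, had changes in both directions. In FEM 3 of 17 rose and 3 fell (17.6% each, beside 23.2% and 12.6% of all genes tested), and 7 and 8 fell after quantile normalization and centring. The laminin gene lam-3 rose from 127, 191 and 161 to 555, 583 and 468. The matrix protease gene gon-1, known for shaping the gonad, fell from 691, 555 and 555 to 339, 298 and 360.4, and it shares 117 exonic bases with spe-29. In GEM lam-3 was already at 353 to 589 at 41 h.

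Of 35 histone genes tested out of 68, 3 rose (8.57%) and 4 fell (11.4%), beside 23.2% and 12.6% of all genes tested, and many are near-identical copies. The histone H3 gene his-70 rose from 423, 436 and 454 to 1211, 1407 and 1140.4 and was at 1.16 to 6.24 in GEM at 41 h. The falls numbered 6 after quantile normalization, 7 after centring, and 2 without library 2 at 49 h. Of 36 genes for caenacins and related antimicrobial peptides 8 rose and 5 fell (22.2% and 13.9%, near the shares of all genes tested), and 4 rose without library 1 at 41 h. In this group abf-1 rose from 0, 1.801 and 9.49 to 37.5, 43.3 and 29.9.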
